A study of Mus musculus with 3 samples.

Results

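The BCL2 family apoptosis regulators described here are 10 genes, taken by symbol from a table of 34591 gene symbols: Bcl2, Bcl2l1 and Mcl1, Bax and Bak1, and Bid, Bad, Bcl2l11, Bbc3 and Pmaip1. All 10 were found in the table. They were measured by messenger RNA sequencing in 3 libraries of 4T1, an established mouse mammary carcinoma cell line, with the genotype WISP2 OE, meaning that the secreted matricellular protein WISP2 was over-expressed. The libraries form 1 group, called C1, C2 and C3 after their columns. The protocol describes vector transduction and puromycin selection for constructs of Wisp1; no source used here says how the WISP2 construct was made, whether the cells were 1 clone or a pool, or whether the libraries came from separate cultures. Empty-vector 4T1 cells named in the design were not analysed here, so the data give the state of the family in over-expressing cells and not an effect of WISP2.

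The BCL2 family decides whether the outer mitochondrial membrane stays intact when a cell is stressed. BAX and BAK1 are the effectors: once active they form oligomers that open the membrane and let cytochrome c out, which starts the caspase cascade. BCL2, BCL-XL (from Bcl2l1) and MCL1 are the guardians, which hold effectors and their activators in check, and the BH3-only proteins sense damage and either bind the guardians or activate the effectors directly. Binding runs through a short helix, the BH3 region, whose fit into a groove of the partner sets who binds whom.

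That region is shown here for the 9 members searched. In GENCODE M21, the longest complete coding transcript of each member was translated and searched for a leucine, any 3 residues, then glycine, alanine or serine, then aspartate. Each of the 9 members searched had 1 match, while 34.0% of 21519 coding transcripts had at least 1, so the pattern alone does not mark the family. Bases are the coding strand, 5′ to 3′, and the capitals mark the 18 bases of the matching codons. Pmaip1 was not searched.
Bcl2: accCTCCGCCGGGCTGGGGATgacttc
Bcl2l1: gcgCTGAGAGAGGCAGGCGATgagttt
Mcl1: accCTGCGGCGCGTGGGCGACggcgtg
Bax: tgtCTCCGGCGAATTGGAGATgaactg
Bak1: cagCTTGCTCTCATCGGAGATgatatt
Bid: catCTCGCCCAAATAGGCGATgagatg
Bad: gagCTCCGAAGGATGAGCGATgagttt
Bcl2l11: gagCTGCGGCGGATCGGAGACgagttc
Bbc3: cagCTGCGGCGGATGGCGGACgacctc
The match lay early in the effectors, beginning at codon 63 of 192 in Bax and codon 76 of 209 in Bak1. In 3 of the BH3-only genes it lay late, at codon 150 of 196 in Bcl2l11, codon 151 of 204 in Bad and codon 141 of 193 in Bbc3, whereas in Bid it began at codon 90 of 195. In the guardians it began at codon 94 of 236 in Bcl2, codon 90 of 233 in Bcl2l1 and codon 194 of 331 in Mcl1.

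Library totals ran from 17630755 counts in the shallowest, C1, through 47577315 in C3 to 67028365 in C2. Levels are given as CPM, each count scaled by its library's total of gene-assigned counts, and intervals are exact 95% Clopper-Pearson intervals that cover counting error only. The 4 epithelial markers (Krt8, Krt18, Cdh1 and Epcam) all reached 1 CPM in every library, with a summed level of 2510 to 2762 CPM. The 4 fibroblast and 3 endothelial markers did not reach 1 CPM. Of 7 leukocyte markers 2 did, and their summed level was 9.37 CPM in C2 and 9.56 in C3 but 18.2 in C1, while Cd3e had 0 counts. Wisp2 stood at 429, 384 and 454 CPM in C1, C2 and C3. Each library is a lysate of many cells, so a low level in all cells and a higher level in a few cannot be told apart.

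Of the 10 members 9 were clearly expressed and 1, Pmaip1, was at the floor. The 9 ranged from 7.99 ± 0.782 CPM (SD, n = 3) for Bbc3 to 169.6 ± 5.74 CPM for Mcl1, around a median of 35.9 CPM over the 11700 genes that reached 1 CPM in every library.

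**Figure D1:**
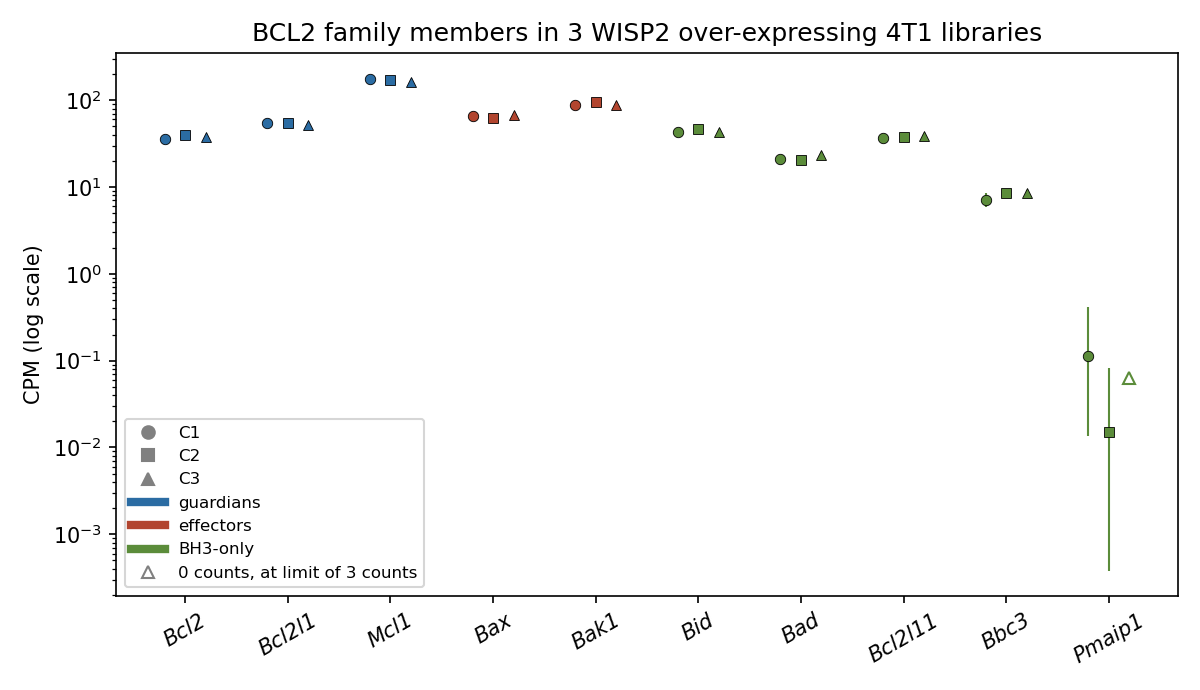
CPM of each member in C1, C2 and C3 on a log scale, with exact 95% counting intervals; the open triangle marks the library of Pmaip1 with 0 counts, at the limit set by 3 counts. The 9 expressed members lie between 7.09 and 175 CPM in single libraries, and Pmaip1 lies at or below 0.113 CPM.

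Among the guardians, Mcl1 was the most abundant. MCL1 is a short-lived protein, so its supply depends on continued transcription and translation. Mcl1 stood at 175, 170.1 and 164 CPM in the libraries C1, C2 and C3, and the counting interval of the shallowest, C1, ran from 169 to 181. Bcl2l1, which encodes BCL-XL and, by an alternative splice, a shorter pro-apoptotic form that gene counts do not separate, stood at 53.8, 55.2 and 51.8 CPM. Bcl2, the founding member of the family, stood at 35.9, 39.9 and 38.0 CPM. The 3 guardians kept this order in all 3 libraries, and their ranges did not overlap. Within libraries, Mcl1 exceeded Bcl2l1 by 1.66 ± 0.04 on the log2 scale of CPM ratios (3.16-fold) and Bcl2 by 2.16 ± 0.11 (4.47-fold).

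CPM grows with transcript length, and the guardians differ widely in it: the exons of Bcl2 cover 9157 bases in GENCODE M21, those of Bcl2l1 4586 and those of Mcl1 3418. Per kb of exon, Mcl1 was at 49.6 ± 1.68 CPM per kb, Bcl2l1 at 11.7 ± 0.369 and Bcl2 at 4.15 ± 0.220. On this scale Mcl1 held 75.8% ± 0.71 of the summed guardian level, Bcl2l1 17.9% ± 0.32 and Bcl2 6.34% ± 0.41. The ratio of Mcl1 to Bcl2 was then 12.0-fold, against 3.19-fold when counts were divided by coding bases only. Mcl1 was thus the highest guardian under each of the 4 length scales used (no correction, all exons, longest transcript, coding bases), while the size of its lead moved with them. Mcl1 lay above 89.4% of the detected genes that had an exon length (10560 genes), Bcl2l1 above 59.4% and Bcl2 above 30.4%.

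Both effectors were expressed, at similar levels per kb of exon. Bax, which is cytosolic in resting cells and moves to mitochondria on activation, stood at 65.6, 62.3 and 68.1 CPM. Bak1, whose protein sits in the mitochondrial membrane already, stood at 87.9, 94.9 and 86.8 CPM. Bak1 was the higher in all 3 libraries on the CPM scale, by 0.46 ± 0.13 on the log2 scale (1.38-fold), and the ranges did not overlap. Per kb of exon the direction turned: Bax stood at 41.6, 39.5 and 43.2 CPM per kb and Bak1 at 36.5, 39.4 and 36.0, a ratio of Bak1 to Bax of 0.901. In C2 the ratio per kb was 0.998, so in that library the effectors were nearly level. The effectors' order therefore rests on the length used: Bak1 was 1.26-fold above Bax per coding base, and 0.634 of it per base of the longest transcript. Bax lay above 87.3% and Bak1 above 85.8% of detected genes per kb of exon.

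The BH3-only genes spanned the widest range. Bid, whose protein carries the death receptor signal to mitochondria once caspase 8 has cut it, was the highest at 42.5, 46.1 and 43.5 CPM. Bcl2l11, which encodes BIM, an activator that binds all the guardians, stood at 36.7, 37.4 and 38.8 CPM. Bad, whose protein is kept inactive by survival kinases and 14-3-3 proteins, stood at 21.2, 20.3 and 23.1 CPM. These 3 genes did not overlap one another on the CPM scale. Bbc3, which encodes the p53-induced activator PUMA, was lower, at 7.09, 8.46 and 8.43 CPM, with a counting interval of 5.90 to 8.45 in C1.

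Per kb of exon the order of the BH3-only genes changed; the exons of Bcl2l11 cover 8029 bases, those of Bid 3550, those of Bad 2558 and those of Bbc3 2124. Bid was at 12.4 ± 0.522 CPM per kb, Bad at 8.43 ± 0.559, Bcl2l11 at 4.69 ± 0.134 and Bbc3 at 3.76 ± 0.368. Bid took 42.4% ± 1.60 of the summed BH3-only level, Bad 28.8% ± 1.67, Bcl2l11 16.0% ± 0.24 and Bbc3 12.8% ± 0.87. Bad exceeded Bcl2l11 by 1.80-fold on this scale, whereas Bcl2l11 exceeded Bad by 1.75-fold in CPM, so the order of that pair depends on the length correction.

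Pmaip1, which encodes NOXA, the BH3-only protein that binds MCL1 most selectively, was almost without reads. C1 gave 2 counts, C2 gave 1 and C3 gave 0. These equal 0.113 CPM for C1, with an interval of 0.0137 to 0.410, and 0.0149 CPM for C2, with an interval of 0.000378 to 0.0831. The 0 of C3 has an exact upper bound of 0.0775 CPM by the same intervals, and a limit of 0.0631 CPM at 3 counts, the limit used here for other genes at 0. Without C1 the mean was 0.00746 CPM, against 0.0428 with it. Against these 3 summed counts Bbc3 had 1093, a ratio of 364 (95% counting interval 124 to 1769), and Bcl2l11 had 4998, a ratio of 1666 (570 to 8081). Per kb of exon the ratio of Bbc3 to Pmaip1 was 469 (160 to 2276). Its guardian partner Mcl1 was the highest member in CPM in the same libraries. The annotation the counts were made with is not given in the sources used here, so a gene model that misses most of the Pmaip1 transcript would also give few counts; this was not tested.

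Over all 10 members per kb of exon, the order ran from Mcl1 through Bax, Bak1, Bid, Bcl2l1, Bad, Bcl2l11, Bcl2 and Bbc3 to Pmaip1. Neighbours were taken to differ when their ranges over the 3 libraries did not overlap and the difference had 1 sign in all 3. By this rule Bid and Bcl2l1 did not differ (1.06-fold) and neither did Bcl2 and Bbc3 (1.10-fold), because their ranges overlapped. Within libraries, Bid was above Bcl2l1 in all 3 (log2 ratio 0.09 ± 0.05), and so was Bcl2 above Bbc3 (0.14 ± 0.08). On this scale the gap between Bak1 and Bid, 3.01-fold, was the largest between neighbours above Pmaip1, and set Mcl1 and both effectors apart from the rest. Below those 3 genes the gap was 1.80-fold per base of the longest transcript, 1.48-fold per coding base and 1.22-fold in CPM. Larger gaps lay elsewhere on those scales: Bad to Bcl2l11 in the first (1.88-fold) and Bad to Bbc3 in the others (2.56-fold and 2.70-fold). Per kb of exon, 43 of the 45 pairs of members had ranges that did not overlap. The share over pairs of all genes was not taken, so this count cannot be read as a trait of the family. With 3 libraries the smallest two-sided p of an exact sign-flip test is 0.25, and ratios are given without one. Mcl1 and the effectors were the first 3 genes under all 4 length scales, but Bax came first per base of the longest transcript (1.20-fold above Mcl1).

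**Figure D2:**
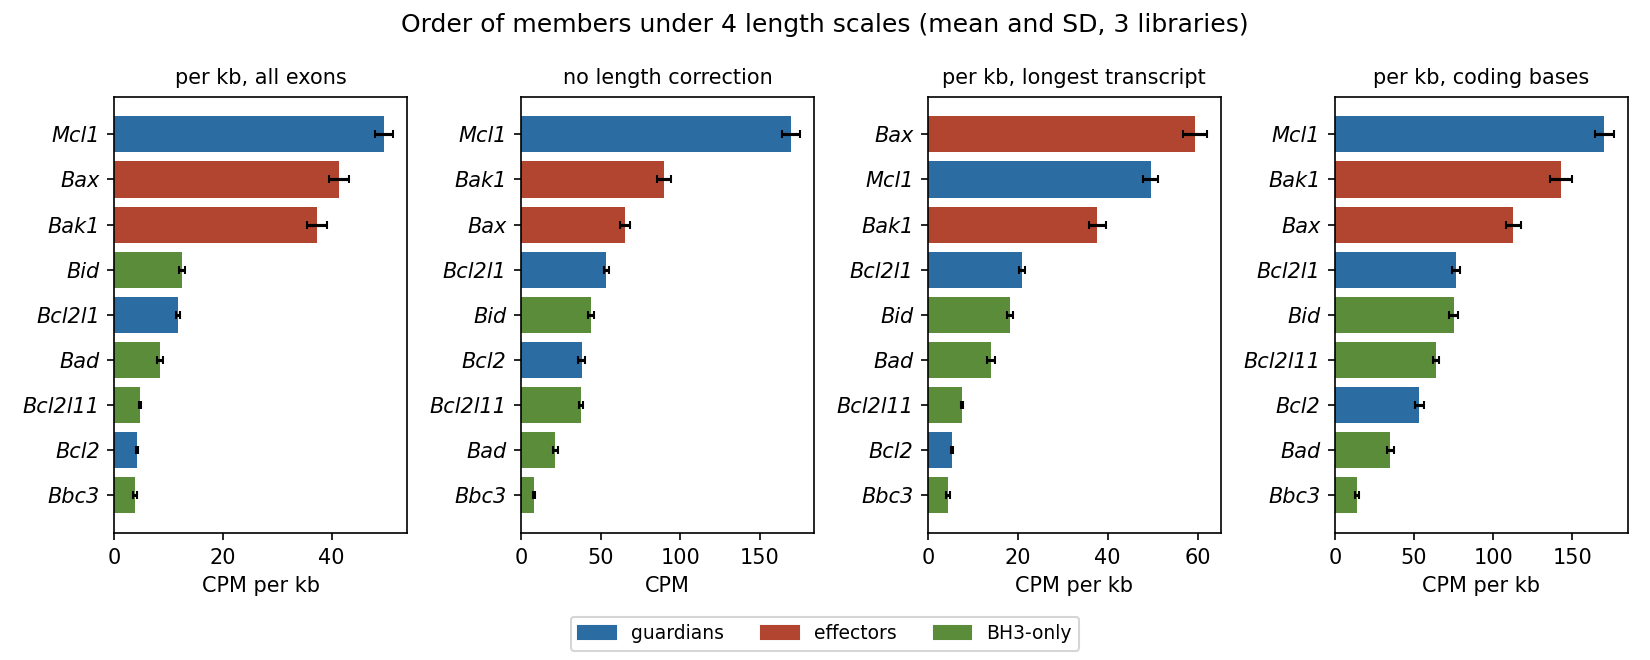
Mean level and SD (bars, n = 3) of the 9 expressed members under 4 length scales, in CPM or CPM per kb, each panel ordered by its own values and coloured by role. Mcl1, Bax and Bak1 hold the top of every panel, whereas Bcl2 and Bcl2l11, which have the longest exons, sit lower per kb of exon than per coding base.

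Summed by role per kb of exon, the effectors stood at 78.8 ± 0.586 CPM per kb, the guardians at 65.5 ± 1.87 and the BH3-only genes at 29.3 ± 0.968. In C1, C2 and C3 the guardian sum was 0.856, 0.838 and 0.799 of the effector sum, and thus the lower in 3 of 3 libraries (log2 ratio -0.27 ± 0.05). This direction was not stable to the length used: without length correction the guardians were 1.68-fold above the effectors, and per coding base 1.17-fold above. The guardians exceeded the BH3-only genes 2.37-fold, 2.24-fold and 2.10-fold per kb of exon, and stayed above them under all 4 length scales, with 1.60-fold per coding base as the lowest value. These sums are of messenger RNA and say nothing of protein amounts or of which proteins are bound.

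**Figure D3:**
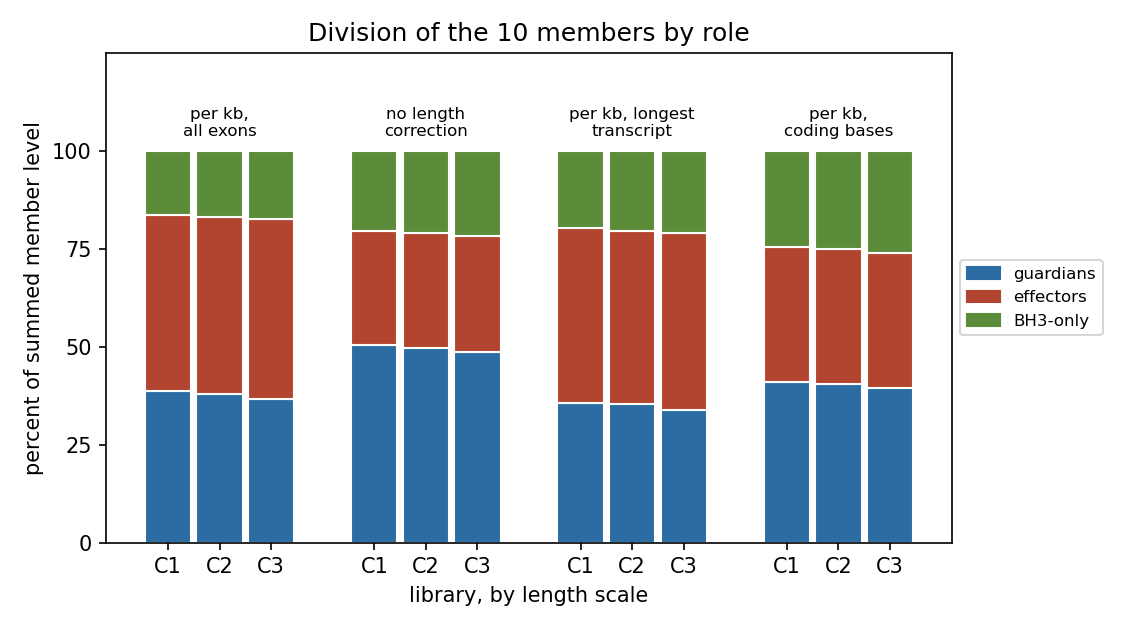
Share of the summed level of the 10 members held by guardians, effectors and BH3-only genes, in percent, in each library under 4 length scales. The 3 libraries within a scale are nearly alike, and the guardian share moves from 34.9% per base of the longest transcript to 49.5% without length correction.

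The libraries differed little in these genes. For the 8 members at 10 CPM or more in every library, the highest library exceeded the lowest by 1.06-fold (Bcl2l11) to 1.14-fold (Bad), with a median of 1.09-fold, beside a median of 1.08-fold over all 9135 such genes. Bbc3, the least abundant of the expressed members, had a ratio of 1.19. No library was high throughout: of the 9 expressed members 5 were highest in C2, 3 in C3 and 1 in C1, and 4 were lowest in C1, 3 in C3 and 2 in C2. The same split over all genes was not taken, so these counts describe the members only and show no trait of the family. C1, which had the highest leukocyte marker level, was the highest library for Mcl1 only.

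**Figure D4:**
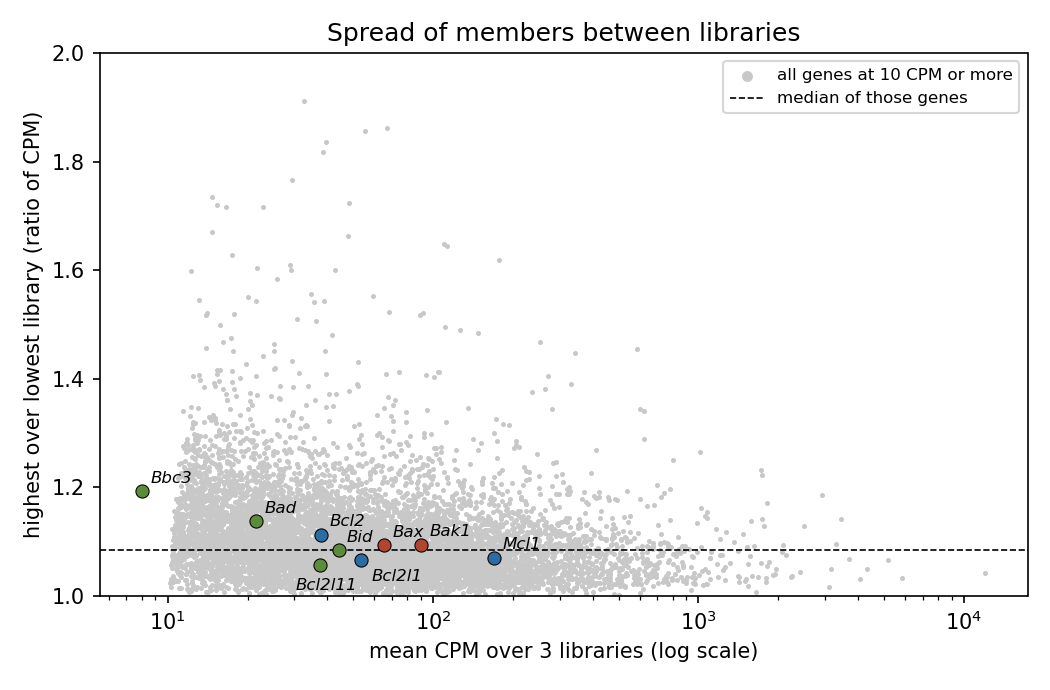
Ratio of the highest to the lowest library against mean CPM (log scale) for the 9 expressed members, coloured by role, and for 9135 genes at 10 CPM or more in grey; 5 of those genes lie above the axis limit of 2. The members run from 1.06 for Bcl2l11 to 1.19 for Bbc3, which lies below 10 CPM and so has no grey points beside it.

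Spread between libraries was then tested over all genes. A Poisson dispersion test asks whether a gene varies more than counting alone allows. It called 39.3% of the 13026 genes tested and 4 of the 9 members tested, Mcl1, Bax, Bak1 and Bad, or 44.4%, a share near that background. Bak1 had an adjusted p of 0.000152 and Bax 0.00156 in this test over all genes, with TMM scaling in edgeR. In C2, Bak1 was at its highest and Bax at its lowest. The count was 4 without C1, 1 without C2 (Mcl1) and 0 without C3, each with fewer libraries and reads. The calls over all genes fell as well, to 4908 of 13337 without C1, 1761 of 12774 without C2 and 1667 of 12970 without C3. The edgeR quasi-likelihood F test, which compares a gene's spread with that of genes of similar level, called 0.0691% of all genes and 0 members. None of the 9 members tested had an unadjusted p under 0.05 in the edgeR test, and the lowest was 0.325. Over all 13026 genes tested, 671 had such a p. At that share, 0 of 9 members cannot be read as a trait of the family.

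Bad varied most among the 8 members at 10 CPM or more, and the genes whose deviations over the 3 libraries were nearest to its own were the pseudogene symbol Pgam1-ps2, the Mediator subunit gene Med29 and the semaphorin receptor gene Plxnb1. Plxnb1, for example, stood at 63.2, 60.4 and 69.0 CPM in C1, C2 and C3. Such likeness is common with 3 libraries: 520 of 9255 genes lay within a distance of 0.05 on the log2 scale.

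Of the members, 3 share exonic bases with a gene on the opposite strand that had reads, and the strand setting of the counting is not given in the sources used here. Bid shares 17.7% of its exon bases with Bcl2l13, a distant relative of the family at 64.1 CPM, Bad shares 20.5% with Gpr137, and Bak1 shares 18.2% with Ggnbp1. In C1, C2 and C3 Bcl2l13 had 1107, 4338 and 3080 counts, more than Bid in each, Gpr137 had 167, 527 and 507, fewer than Bad, and Ggnbp1 had 37, 98 and 85, far fewer than Bak1. Bax shares 12.2% of its exon bases with Gm45808 on the same strand, a symbol not among those counted. How many reads fell in the shared bases was not tested, so the levels of these members are uncertain by an unknown amount. Promoter windows of 9 of the 10 members were found in the RefSeq table (GRCm38.p6). They held between 1 and 44 CG dinucleotides per window, Bcl2 having 44, Bbc3 30 to 39 in 3 windows and Bak1 11, beside a median of 7 over 32851 windows. The 3 windows of Bcl2l1 ran from 1 to 22.

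The other genes of the pathway were read from 53 genes in 7 lists, of which 45 reached 1 CPM in every library and 5 had 0 counts. In the Poisson dispersion test 23 of the 46 tested were called, beside 39.3% of all genes. The F test called 0, beside 0.0691% of all genes. Among the other guardians only Bcl2l2, which encodes BCL-W, was expressed, at 23.7, 22.4 and 23.6 CPM. Per kb of exon it stood at 5.20 ± 0.161, which is 1.25-fold above Bcl2 but 0.747 of it per coding base. Bcl2a1a, Bcl2a1b and Bcl2a1d, which encode the guardian A1 of blood cells, and Bcl2l10 had 0 counts, a limit, at 3 counts, of 0.0448 CPM in the deepest library and 0.170 in the shallowest. The Bcl2a1 genes are near-identical copies, so reads that match several of them may have been dropped and their levels are uncertain.

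Bok, an effector-like relative that does not depend on the guardians in the same way, was expressed at 57.0, 56.7 and 58.9 CPM, or 31.3 ± 0.637 CPM per kb. It lay 0.838-fold relative to Bak1 and 0.755-fold relative to Bax per kb. Relative to Bak1 the direction turned to 1.04-fold per base of the longest transcript, and was 0.628-fold per coding base. Bok stayed below Bax on both of these scales, at 0.660-fold and 0.795-fold. The remaining BH3-only genes were low: Bmf, which is tied to the cytoskeleton, stood at 5.46 ± 0.708 CPM, Bik at 0.795 ± 0.104 CPM and Hrk, a neuronal gene, at 0.176 ± 0.103 CPM with 24 summed counts. Among distant relatives the hypoxia-induced mitophagy receptors Bnip3 (97.8, 101 and 122 CPM) and Bnip3l (161, 186 and 194 CPM) were highest per kb, at 47.2 ± 5.70 and 46.7 ± 4.46, and both were highest in C3. Becn1 (15.8 ± 0.491 CPM per kb) and Bcl2l13 (7.05 ± 0.123) followed.

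Downstream of the mitochondrion all 15 apoptosome and caspase genes reached 1 CPM. Cytochrome c, Cycs, stood at 31.0 ± 0.999 CPM per kb, Aifm1 at 25.3 ± 0.960 and the protease Htra2 at 21.5 ± 0.380. The adaptor Apaf1 (4.58 ± 0.342 CPM per kb) and the initiator Casp9 (3.61 ± 0.258) were lower. All 8 death receptor genes were likewise detected, led by Casp8, the protease that cuts BID, at 23.5 ± 0.540 CPM per kb, the receptor Tnfrsf1a at 13.9 ± 0.097, Tradd at 9.03 ± 0.637 and Tnfrsf10b at 8.88 ± 0.575.

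The partners of the members were abundant as a list, with a median of 44.7 CPM per kb over 9 genes beside 8.49 over all detected genes with a length. The 14-3-3 gene Ywhaz, whose protein family retains BAD in the cytosol, stood at 215 ± 3.25 CPM per kb, the mitochondrial channel Vdac1 at 147 ± 1.77, the dynein light chain Dynll1, a binding partner of BIM, at 59.8 ± 0.891 and Vdac2, which holds BAK1 at the membrane, at 54.6 ± 1.53. Of the regulators of MCL1 turnover, the ubiquitin ligase Huwe1 stood at 17.5 ± 1.46 CPM per kb, the deubiquitinase Usp9x at 20.8 ± 1.17 and the ligase subunit Fbxw7 at 3.99 ± 0.073. Of 5 transcription factors known to induce members, E2f1 was at 13.7 ± 0.734 CPM per kb, Trp53, a known activator of Bax, Bbc3 and Pmaip1, at 12.1 ± 1.03, Foxo3 at 4.66 ± 0.166 and Ddit3 at 3.87 ± 0.816, while Trp73 had 0 counts. In CPM, Trp53 stood at 47.6, 45.5 and 53.5. Whether its transcript gives a working protein in these cells was not tested.

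**Figure D5:**
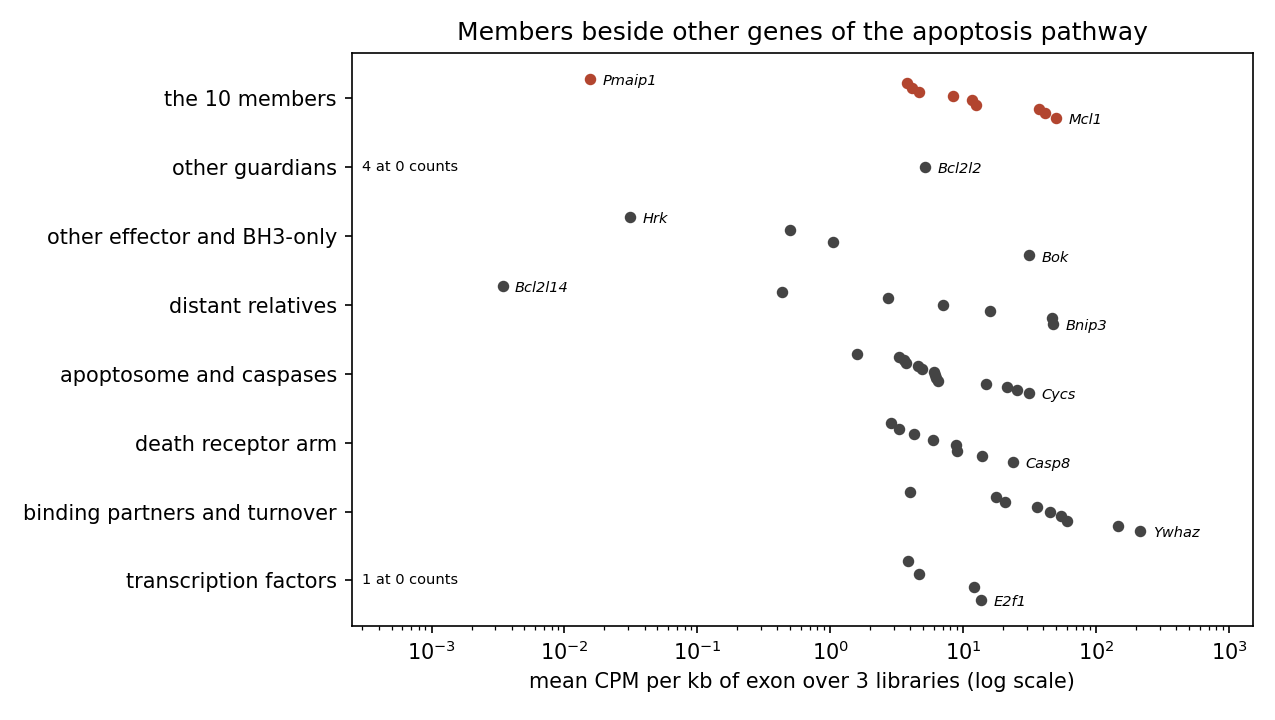
Mean CPM per kb of exon over 3 libraries, on a log scale, for the 10 members (red) and the 7 lists of other apoptosis genes (grey), 1 point a gene, with the highest gene drawn and those under 0.1 CPM per kb named; 1 caspase list gene is not drawn. Mcl1 lies near Bnip3, and Pmaip1, Hrk and Bcl2l14 lie far below the others with a count.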

How the data were processed

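The deposited table holds raw counts per gene symbol: the values are whole numbers with a different total in each column. The submitters' processing notes name CASAVA 1.7, BWA, STAR, HTSeq and mm9, with no role or order. The annotation used, with the strand setting and the treatment of multi-mapping reads, is not given in the sources used here. Since no column carries a sample's title, all 3 were mapped to the group only.

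CPM used column totals. Lengths came from GENCODE M21 (GRCm38), another build, so no gene coordinates are given; 84.6% of symbols matched. Ratios between single genes were taken within libraries with 0.5 counts added. Ratios between roles were taken within libraries with nothing added. The ratios of Bbc3 and Bcl2l11 to Pmaip1 used counts summed over the libraries, with nothing added. Spread was tested with edgeR 4.0.16 (R 4.3.3, TMM, filterByExpr, intercept only) and a Poisson dispersion test, Benjamini-Hochberg 0.05 over all genes. P-values measure spread between these samples, which may be technical.

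The members and lists were chosen with earlier results of these data known. Genes named are all members, the 4 most abundant genes per kb of each list, its genes at 0, and the 3 genes nearest in pattern to the most variable member; Apaf1, Casp9, Bcl2l14 and the regulators of MCL1 turnover were added after their values were seen. Not every listed gene is reported here.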

Additional observations from a re-analysis of the deposited data

How the results depend on the processing

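TMM, DESeq2 and upper-quartile scaling moved the CPM of any library by at most 0.251%. Leaving out 1 library moved the mean of the 9 expressed members by at most 5.65% (Bbc3, without C1), while that of Pmaip1 went from 0.0428 to 0.00746 CPM without C1. The log2 ratio of guardians to effectors (-0.27) reversed to 0.75 without length correction and to 0.23 per coding base, and moved to -0.36 with the longest transcript, to -1.55 with geometric means, to -0.75 with Bok among the effectors and to -0.16 with Bcl2l2 among the guardians. The log2 ratio of guardians to BH3-only genes (1.16) moved to 0.78 with the longest transcript, to 0.68 per coding base and to 1.03 with geometric means, which leave out Pmaip1. Of the 10 members, 4 kept their rank without length correction, 6 with the longest transcript and 3 per coding base; without any 1 library all 10 did. Members called by the Poisson dispersion test numbered between 0 and 4 without 1 library, where the calls over all genes ran from 1667 to 4908. They numbered 4 under the other scalings, beside 5100 and 5176 of 13026 genes. Without the low-count filter they also numbered 4, beside 4976 of 18797 genes. The F test called 0 members under every setting run. Its calls over all genes were few as well, from 0 of 13026 with robust empirical Bayes to 171 of 18797 without the low-count filter. With so few calls, the 0 says little about the members. The use of coding length and the additions of Bok and Bcl2l2 were chosen after seeing the data. No protein table was used here, and the BH3 region was read from coding transcripts instead. No paired analysis was possible because there is only 1 group. Depth limits Pmaip1 and the genes at 0 counts to the limits given.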
